A study of Rattus norvegicus with 22 samples.

Results

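Ion channel genes were followed over all 22 arrays of a study of pregnant Wistar rats and their offspring. Probe sets were taken where the array annotation gave 1 symbol and that symbol began with Kcn, Scn, Cacn, Clcn, Trpc, Trpm or Trpv, and Cacna1d, Trpv5 and Trpv6 were left out. The rule used names only, no measured value. It gave 185 of 15866 probe sets, for 133 of 10411 named genes, and 34 of these genes had more than 1 probe set. Kcn genes encode potassium channels, Scn genes sodium channels, Cacn genes calcium channels, Clcn genes chloride channels and transporters, and Trpc, Trpm and Trpv genes cation channels of the transient receptor potential family. Many Kcn, Scn and Cacn symbols name accessory subunits or binding proteins of channels and not pores. Scnm1, whose product acts in splicing, and Trpc4ap, an adaptor protein that binds TRPC4, carry such a symbol and were counted as neither.

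Dams were given EMD 82571, a calcium sensitiser, at 50 or 150 mg/kg/day (EMD50 and EMD150), retinoic acid at 12 mg/kg/day (RA), or vehicle (control). Treatment was daily from gestational day 6, until day 11 or day 17 by the protocols, while the design text names day 17 alone as its end. RNA came from 5 strata: whole embryo and maternal liver at day 12, and embryo bone, embryo liver and maternal liver at day 20. A stratum had a single array for control, for EMD50, for EMD150 and for RA, except that RA had 2 arrays (coded RA5 and RA56, not explained in the sources used here) in whole embryo and in maternal liver at day 12. All animals were Wistar, no allele or further agent is named, and ages of the dams, pooling and shared litters are not given. The strata served as the repeats of a treatment, and the treatments as the repeats of a stratum. The p-values therefore rest mainly on how far treatment differences varied between the strata of these samples, and not on the spread between animals.

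Ion channels are membrane proteins that let selected ions pass, and they open on a change of voltage, on binding of calcium or another ligand, or on heat and stretch. Pore subunits are joined by accessory subunits that set trafficking and gating. The family is best known from nerve and muscle, while liver cells use a smaller set for volume control, bile flow and organelle acidity, and red cells use a calcium-activated potassium channel to control their volume.

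The tissue labels were set against marker lists. The hepatocyte list (7 of 8 genes measured) averaged 13.8 to 14.04 log2 units in the liver strata and 9.13 to 9.19 in bone and whole embryo. The skeletal muscle list (11 of 12 genes) averaged 11.1 in bone and 7.44 to 8.14 elsewhere, and the osteoblast list averaged 11.9 in bone and 7.09 to 7.66 elsewhere, so genes of both kinds read high in bone. The red cell list (3 of 6 genes) averaged 13.6 in embryo liver, 11.9 in bone and 10.3 to 10.4 in the other strata. The neuron list (8 of 9 genes) averaged 9.28 in whole embryo and 8.64 in bone. Some arrays stood apart. In the EMD50 bone array, the 3' probe set of GAPDH, a sign of RNA quality, exceeded the 5' one by 2.72, against 0.568 to 0.859 in the other arrays. The RA array of day 20 maternal liver had a muscle list level of 9.67, against values from 7.46 upwards in that stratum. Genes of pancreatic acinar cells (6 of 6) averaged 10.9 and 10.3 in control and EMD50 day 12 maternal liver and 9.59 in control day 20 maternal liver, against 7.58 to 7.99 in the other maternal livers. In bone the neuron list was 7.58 in RA and 8.80 to 9.26 in the other arrays. Array SDs ran from 1.51 to 1.83, and in every stratum that of EMD150 was lower than that of control. In samples of whole tissue, fewer cells of a type and less RNA per cell cannot be told apart.

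The promoters of 3 members are shown because these genes read higher in bone than in embryo liver (Trpm7 through 1 of its 2 probe sets) and their windows differ in letters. Of the 133 member genes, 97 had an entry in the RefSeq promoter table (GRCr8). The 250 bases before the gene start are given on the gene's own strand, and capitals mark CAGCTG, a palindromic E-box that therefore reads the same on both strands. The windows are chr13:50045418-50045667 (plus strand) for Cacna1s, chr3:71846285-71846534 (minus strand) for Scn7a and chr3:134588114-134588363 (minus strand) for Trpm7.
Cacna1s: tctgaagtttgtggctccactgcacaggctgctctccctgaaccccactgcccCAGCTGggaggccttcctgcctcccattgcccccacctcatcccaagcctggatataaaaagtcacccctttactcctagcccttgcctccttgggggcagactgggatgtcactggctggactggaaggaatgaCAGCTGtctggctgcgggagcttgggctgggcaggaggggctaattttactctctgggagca
Scn7a: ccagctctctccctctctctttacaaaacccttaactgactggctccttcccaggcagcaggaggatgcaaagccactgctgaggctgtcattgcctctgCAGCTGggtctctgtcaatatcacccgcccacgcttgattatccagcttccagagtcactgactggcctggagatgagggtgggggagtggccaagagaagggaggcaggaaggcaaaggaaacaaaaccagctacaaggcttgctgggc
Trpm7: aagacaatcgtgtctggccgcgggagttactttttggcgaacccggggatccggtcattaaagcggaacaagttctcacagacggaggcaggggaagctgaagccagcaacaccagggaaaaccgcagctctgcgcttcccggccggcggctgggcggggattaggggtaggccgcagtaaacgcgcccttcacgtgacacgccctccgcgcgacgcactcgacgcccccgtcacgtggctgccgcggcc
Cacna1s, the pore of the skeletal muscle calcium channel, held CAGCTG at 2 places, beginning 197 and 62 bases before the start. Scn7a, a sodium channel of atypical gating, held it at 1 place, 150 bases before the start. Of all 33469 promoter windows of this length, 12% held the motif and 1.04% held it at 2 or more places. Trpm7, a cation channel fused to a kinase, had no CAGCTG in this window but 29 CG dinucleotides, a count reached by 6% of all windows, whose median was 5. Cacna1s had 1 and Scn7a had 2. These are descriptions of letters, and binding was not measured. The windows were chosen with their letters known, so the shares of all windows are no test of these genes.

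Most ion channel probe sets gave a signal as low as that of genes not known to act in these tissues. The mean over the 22 arrays was above the median of all probe sets (8.22 log2 units) for 21 of the 185 members (11.4%), which were 21 different genes (15.8% of 133). The other 164 probe sets, which include every probe set of 112 genes, are called near background here by that mean, although some of them read well above it in 1 tissue. The lowest member above the median was Kcnh2 at 8.28 and the highest below it was Scnn1b at 8.20. As a reference for background, 30 genes of olfactory, taste and related sensory receptors had a median of 6.99, a 95th percentile of 8.23 and a highest mean of 8.42. The members' median was 7.04, and 18 members lay above the highest sensory receptor. Probe sets bind with different strength, so these levels are signals of each probe set and do not rank RNA amounts between genes.

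**Figure D1:**
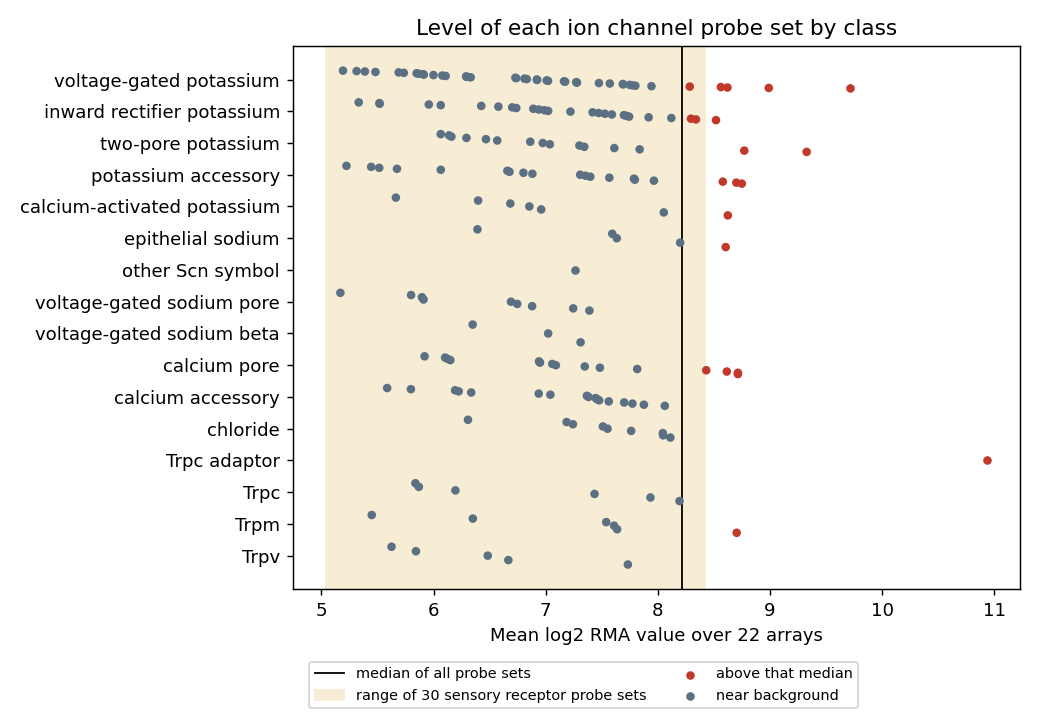
Mean log2 RMA value over the 22 arrays (x axis) of the 185 probe sets, 1 point each, by channel class (y axis), where points of a class are offset vertically in order of level. The black line is the median of all probe sets (8.22), the shaded band spans the 30 sensory receptor probe sets (5.04 to 8.42), and 21 points (red) lie to the right of the line.

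By role, the 21 included 5 of 30 voltage-gated potassium channel genes, 3 of 15 inward rectifiers, 2 of 11 two-pore potassium channels and 3 of 12 accessory potassium subunits. Of the calcium-activated potassium class, which here includes the sodium-activated Kcnt1, they held 1 of 5. The 21 also included 4 of 9 calcium channel pores, 1 of 3 epithelial sodium channel subunits, 1 of 5 Trpm genes and the adaptor Trpc4ap. None of the 9 voltage-gated sodium pores, 3 sodium beta subunits, 14 accessory calcium subunits, 7 Clcn genes, 5 Trpc channels or 3 Trpv channels passed the median. The highest mean was that of Trpc4ap, 10.94, and every array gave it between 10.59 and 11.29. Kcnh3, a voltage-gated potassium channel best known from brain, followed at 9.72, and Kcnk6, a two-pore channel, at 9.33. Next came Kcnh4 (8.99), Kcnk3 (8.77), the Kv4-binding protein Kcnip3 (8.75), the calcium pores Cacna1b and Cacna1g (8.71 each), Trpm7 (8.70), Kcnab2 (8.70), Kcnn1 (8.62) and Kcna1 (8.62).

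The same few members gave the highest signal in each tissue. Trpc4ap was first in all 5 strata, and Kcnh3 and Kcnk6 were among the highest 5 in all of them. Clcn6 (8.83 ± 0.44, SD, n = 5) and Kcne3 (8.82 ± 0.18) entered the highest 4 in whole embryo only, and Cacna1g (9.30 ± 0.46, SD, n = 4) in bone only. Each of these SDs runs over the arrays of a stratum, with the treatments included.

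The range between tissues was narrow for most ion channels. For each probe set, the range of the 5 stratum means was taken. Its median was 0.41 log2 units for members, 0.73 for all probe sets and 0.41 for the sensory receptors. Among the 21 members above the median it was 0.48, against 1.06 for all probe sets above the median, and among the 164 near background it was 0.39, against 0.48 for all probe sets near background. A range of at least 1, which is 2-fold, was reached by 8 members (4.32%) and by 37.8% of all probe sets. Only Kcnk6 of these 8 was above the overall median. The widest sensory receptor had a range of 0.77, and 16 members exceeded it.

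**Figure D2:**
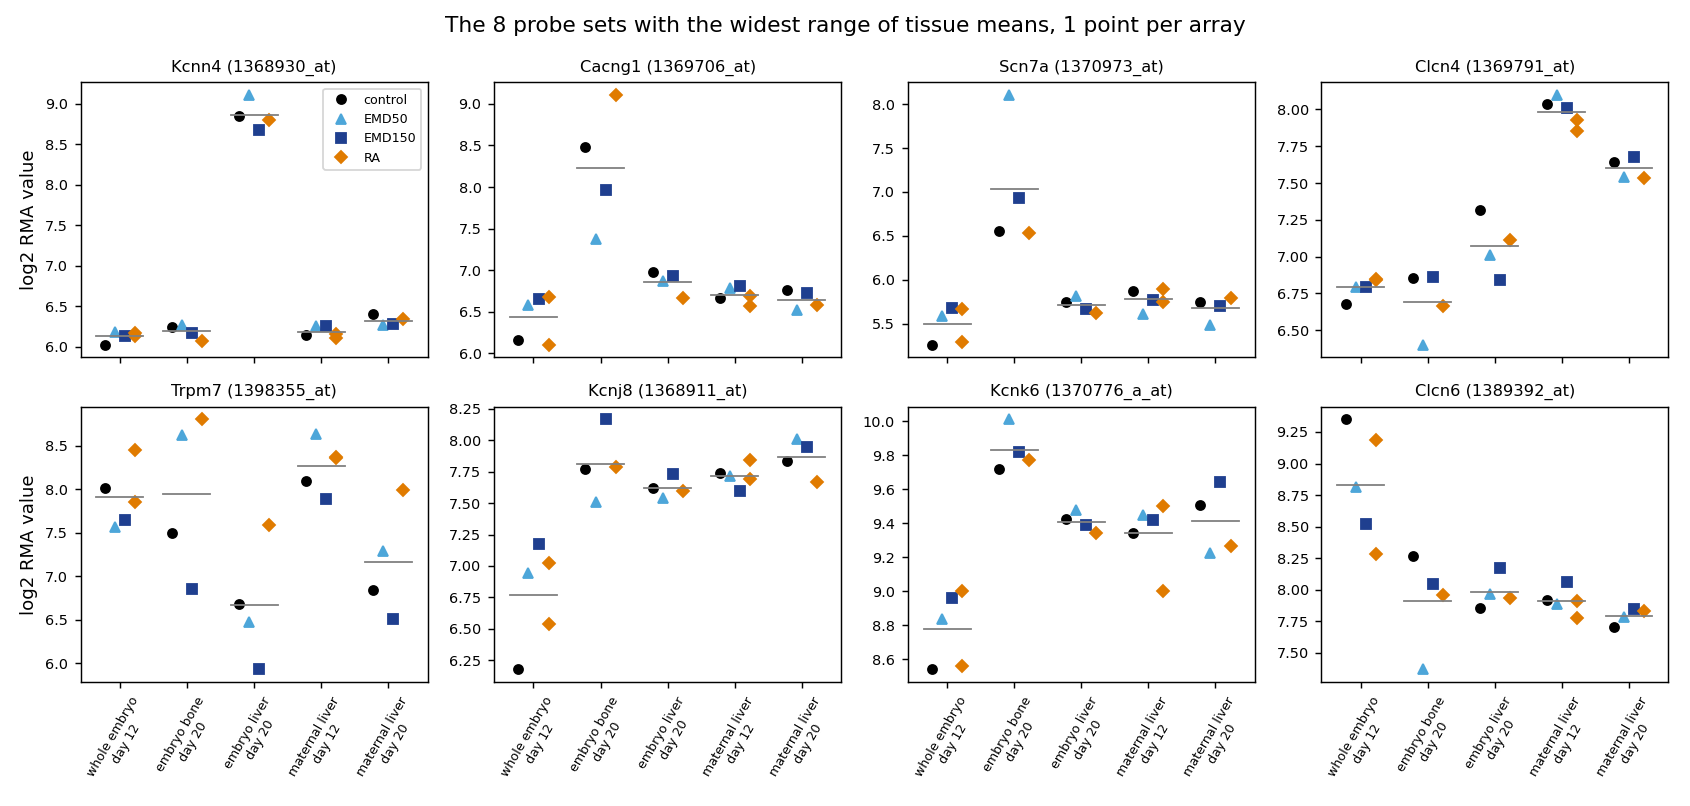
Log2 RMA values (y axis, own scale in each panel) of the 8 probe sets with a range of stratum means of at least 1, by stratum (x axis), 1 point per array, with treatments by symbol and the stratum mean as a grey line. Kcnn4 lies between 8.67 and 9.11 in the 4 embryo liver arrays and between 6.02 and 6.40 in the other 18, while Cacng1 and Scn7a are highest in bone.

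Kcnn4, the calcium-activated potassium channel known as the Gardos channel of red cells, had the widest range (2.73). Embryo liver read 8.85 in control, 9.11 in EMD50, 8.67 in EMD150 and 8.81 in RA. The other 18 arrays lay between 6.02 and 6.40, so the groups did not overlap. Embryo liver exceeded day 20 maternal liver by 2.54 ± 0.074 (SE; limma adjusted p = 1.29e-15) and the difference of bone minus embryo liver was -2.67 ± 0.074 (limma adjusted p = 4.81e-16). The red cell list was highest in the same 4 arrays, at 13.5 to 13.7, and its part in the Kcnn4 difference was not tested. In bone, where that list averaged 11.9, Kcnn4 stayed at 6.07 to 6.27.

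Of the subunits of the skeletal muscle calcium channel, Cacng1, Cacna1s and Cacna2d1 had their highest stratum mean in bone. Cacnb1, its beta subunit, was also measured and lay near background, and its levels by tissue are not given here. The values below therefore do not cover the whole channel. Cacng1, its gamma subunit, read 8.48 in control, 7.38 in EMD50, 7.96 in EMD150 and 9.11 in RA bone, and 6.10 to 6.98 in all other arrays, with no overlap. Cacna1s, its pore, read 6.45, 6.14, 6.50 and 7.18 in the same order, which overlapped other tissues, whose arrays lay between 5.71 and 6.46. Cacna2d1, an accessory subunit that is also found outside muscle, read 8.17, 8.63, 8.04 and 9.15, all above the 7.40 to 7.999 of the other strata. The bone minus embryo liver differences were 1.37 ± 0.23 for Cacng1, 0.60 ± 0.16 for Cacna1s and 0.72 ± 0.17 for Cacna2d1 (limma adjusted p = 6.16e-05, 0.00397 and 0.00191). Without the 4 arrays that stood apart in earlier results (EMD50 and RA bone, RA day 20 maternal liver, RA56 whole embryo), Cacna2d1 fell short of the threshold (0.29, limma adjusted p = 0.114), while Cacng1 gave 1.33 (limma adjusted p = 6.64e-06). The muscle list averaged 10.9 to 11.6 in the bone arrays, and its part in these differences was not tested. In the RA day 20 maternal liver array, where the muscle list stood at 9.67, Cacng1 read 6.59, within the range of the other maternal livers. Scn4a, the sodium channel pore of skeletal muscle, was lower in bone than in embryo liver (-0.46 ± 0.12, limma adjusted p = 0.00429).

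Scn7a read 6.55 in control, 8.11 in EMD50, 6.93 in EMD150 and 6.53 in RA bone, and 5.26 to 5.89 in all other arrays. The groups did not overlap, and the highest bone value was that of the array with the wide GAPDH 3'-5' gap. Bone exceeded embryo liver by 1.32 ± 0.21 (limma adjusted p = 4.01e-05) and whole embryo by 1.52 ± 0.20 (limma adjusted p = 4.54e-06), and without the EMD50 bone array and the other 3 arrays set apart by 1.02 and 1.18 (limma adjusted p = 5.34e-06 and 1.40e-06). Kcnma1, the pore of the large-conductance calcium-activated potassium channel, was higher in bone through 1 of its 3 probe sets: 6.13, 6.47, 6.32 and 6.30 in bone and 5.38 to 5.87 elsewhere, a difference from embryo liver of 0.68 ± 0.069 (limma adjusted p = 9.55e-08). The other 2 probe sets gave -0.16 and -0.34 and were not called. Trpm4, a cation channel opened by calcium, exceeded whole embryo by 0.93 ± 0.14 in bone (limma adjusted p = 1.55e-05), and Scn3b, a sodium channel beta subunit, by 0.70 ± 0.10 (limma adjusted p = 8.77e-06).

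Clcn4, a chloride-proton exchanger of endosomes, was highest in maternal liver. It read 7.85 to 8.10 in the 5 arrays of day 12 and 7.54 to 7.68 in the 4 of day 20, and 6.40 to 7.32 in embryo liver, bone and whole embryo. The 3 sets of arrays did not overlap. Whole embryo lay 1.19 below day 12 maternal liver (-1.19 ± 0.092, limma adjusted p = 5.46e-10), and embryo liver lay below day 20 maternal liver (-0.53 ± 0.10, limma adjusted p = 4.07e-04). Clcn6, a related exchanger of late endosomes, was highest in whole embryo, at 9.35 in control, 8.82 in EMD50, 8.52 in EMD150, 8.29 in RA5 and 9.18 in RA56, against 7.37 to 8.27 elsewhere. It exceeded day 12 maternal liver by 0.92 ± 0.17 (limma adjusted p = 6.13e-05). Clcn3 was also higher in whole embryo, by 0.69 ± 0.12 and 0.42 ± 0.13 in 2 of its 3 probe sets (limma adjusted p = 3.99e-05 and 0.00987).

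Kcnj8, the pore of the ATP-sensitive potassium channel of vascular smooth muscle, was low in whole embryo. It read 6.18 in control, 6.94 in EMD50, 7.17 in EMD150, 7.02 in RA5 and 6.54 in RA56, against 7.51 to 8.17 in the other strata, with no overlap. Bone exceeded whole embryo by 1.03 ± 0.15 (limma adjusted p = 9.72e-06). Kcnk6 followed a like order, with 8.54 to 8.999 in whole embryo, 8.998 to 9.64 in the livers and 9.72 to 10.01 in bone, where only bone stood clear of the rest. Its difference between bone and whole embryo was 1.04 ± 0.12, and its second probe set, near background, gave 0.87 ± 0.090 (limma adjusted p = 6.68e-07 and 1.68e-07).

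The 2 probe sets of Trpm7 did not run together. Probe set 1369059_at averaged 8.48 to 8.96 in the 5 strata, while 1398355_at averaged 7.91 in whole embryo, 7.95 in bone, 6.67 in embryo liver, 8.27 in day 12 and 7.16 in day 20 maternal liver. For the latter, bone exceeded embryo liver by 1.28 ± 0.25 and day 20 maternal liver lay below day 12 (-1.005 ± 0.24; limma adjusted p = 3.32e-04 and 0.0191). For the former those differences were 0.17 and -0.39, neither called (limma adjusted p = 0.428 and 0.282). Within bone, 1398355_at itself spread from 6.86 in EMD150 to 8.80 in RA. Without the 4 arrays set apart, its bone minus embryo liver difference was 0.72 (limma adjusted p = 0.0348).

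Each comparison of tissues is summed up by its count of called members, with the share of all probe sets beside it. The call was a limma adjusted p under 0.05 over all probe sets, from a model of the 22 arrays with stratum and treatment. Whole embryo minus day 12 maternal liver gave 88 called members, which is 47.6%, where 69.8% of all probe sets were called. Of these members 12 were higher and 76 lower, where 35.5% of all probe sets were higher and 34.3% lower. Without the 3 maternal liver arrays high in acinar genes 46 members were called. Bone minus embryo liver gave 94, or 50.8% against 55.2%, of which 19 were higher (all probe sets 25.6%) and 75 lower (29.6%), and 39 in all without the 4 arrays set apart. Embryo liver minus day 20 maternal liver gave 22, or 11.9% against 33%, of which 17 were higher (all probe sets 16.4%) and 5 lower (16.6%), and after median centring 11 were higher and 6 lower. Bone minus whole embryo gave 49, or 26.5% against 46.6%, of which 44 were higher (all probe sets 19.9%) and 5 lower (26.7%), and after quantile normalization 25 were higher and 8 lower. Day 20 minus day 12 maternal liver gave 2, Trpm7 1398355_at and Clcn4, or 1.08% against 4.47%, both lower (all probe sets 2.48%), while 1 was higher and 2 lower after median centring or quantile normalization. Of the 30 sensory receptor genes, 0 were called higher and 16 lower in whole embryo minus day 12 maternal liver, and 0 and 18 in bone minus embryo liver. In embryo liver minus day 20 maternal liver 3 were higher and 0 lower, and in bone minus whole embryo 2 and 0. Between the days of maternal liver it was 0 and 0. The tissue comparisons share arrays with each other. In all, 148 members were called in at least 1 of them, against 88.9% of all probe sets, and 7 (3.78%) at 2-fold or more, against 33.2%.

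The direction was shared by most classes. In whole embryo against day 12 maternal liver, 34.3% of all probe sets were lower and 35.5% higher. There 17 of 41 voltage-gated potassium probe sets were lower and 1 higher, and 13 of 26 inward rectifier probe sets were lower and none higher. The Clcn class differed, with 3 of 9 higher (Clcn6 and both Clcn3 probe sets named above) and 2 lower, and its median difference turned from 0.048 to -0.0020 after quantile normalization. In bone against embryo liver, 29.6% of all probe sets were lower and 25.6% higher. There 12 of 19 accessory potassium probe sets and 9 of 17 accessory calcium probe sets were lower. Of the 9 sodium pores 3 were higher and 2 lower, with a median of -0.11. Cacng8, an accessory subunit of the stargazin type, was the lowest after Kcnn4 (-0.68 ± 0.098, limma adjusted p = 9.33e-06). The array-wide low end moved too. The median of sensory receptor genes on single arrays ran from 6.52 to 6.87 in whole embryo and from 6.92 to 7.07 among the day 12 maternal livers. It ran from 6.57 to 7.20 in bone and from 6.95 to 7.34 in embryo liver. The part of these shifts in the counts above was not tested.

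Between embryo liver and day 20 maternal liver, Kcnn4 stood apart by size, and every other called difference named here was under 0.6 log2 units. Trpc2, known from the vomeronasal organ, was higher in embryo liver by 0.53 ± 0.094 in 1 of its probe sets (limma adjusted p = 1.55e-04). The potassium beta subunit Kcnab2 was higher by 0.46 ± 0.094 in 1 of 2 probe sets and its relative Kcnab1 by 0.35 ± 0.11 (limma adjusted p = 5.95e-04 and 0.0138). Kcnj11, the pore of the beta cell ATP-sensitive potassium channel, was lower through 1 of 3 probe sets (-0.43 ± 0.097, limma adjusted p = 0.00167). Without the 3 maternal liver arrays high in acinar genes this difference was -0.42 (limma adjusted p = 0.0112). The count of 22 fell to 14 without EMD50 embryo liver and to 13 without EMD50 day 20 maternal liver. That of bone minus whole embryo (49) fell to 30 without control whole embryo, and the 2 calls between the days of maternal liver were both lost without control or EMD50 of either day or without EMD150 of day 12, and 1 was left without RA of day 20. Without the 3 arrays high in acinar genes none was called, and Trpm7 1398355_at and Clcn4 gave -0.78 and -0.31 (limma adjusted p = 0.501 and 0.510).

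Probe sets of 1 gene went opposite ways in a single case among called results. In whole embryo against day 12 maternal liver, Trpc2 gave 0.46 ± 0.084 in 1 probe set and -0.25 ± 0.11 in another (limma adjusted p = 7.79e-05 and 0.0414).

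The neighbouring families of channels and pumps outside the name rule were counted from a list. Of 80 listed genes (such as Na,K-ATPase subunits, voltage-dependent anion channels, aquaporins, connexins and ryanodine receptors), 62 were measured. Each was taken by its probe set with the highest mean. Of these, 31 were above the overall median, which splits all probe sets evenly. A range of stratum means of at least 1 was reached by 25 of the 62, and by 37.8% of all probe sets. In whole embryo against day 12 maternal liver 11 of the 62 were called higher and 32 lower (all probe sets 35.5% and 34.3%). In bone against embryo liver it was 18 and 20 (all probe sets 25.6% and 29.6%).

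EMD 82571 changed no ion channel probe set past the threshold. For EMD150 minus control, 0 of 185 members and 0% of all probe sets were called by limma. At an unadjusted p under 0.05 there were 58 members, all higher (31.4%), against 18.4% of all probe sets in either direction and 10.3% higher. The difference was above 0 for 171 members (92.4%), against 51.8% of all probe sets. The median difference of members was 0.13 log2 units, and that of all probe sets was 0.0084. In the 164 members near background the median was 0.12, with 151 above 0, against 0.061 in all probe sets near background. In the 21 members above the overall median it was 0.17, with 20 above 0, against -0.078 in all such probe sets. In all 5 strata, 51 members read higher in EMD150 than in control (27.6%, against 10.9% of all probe sets).

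Genes of another kind read higher as well. The 30 sensory receptor genes had a median of 0.16, with 30 of 30 above 0. EMD150 arrays also had a lower SD than control arrays in every stratum. After quantile normalization, which gives all arrays 1 distribution, the members' medians were 0.068 near background and 0.20 above the median. Those of all probe sets were 0.011 and 0.0018, and that of the sensory receptors was 0.11. The difference was then above 0 for 81.6% of members, 52.1% of all probe sets and 90% of the sensory receptors. How much of the members' shift belongs to the array-wide change of spread was not tested.

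By stratum the members' median difference for EMD150 was 0.22 in whole embryo, 0.14 in bone, 0.12 in embryo liver, 0.052 in day 12 maternal liver and 0.072 in day 20 maternal liver. For EMD50 it was 0.18, -0.011, 0.012, 0.016 and -0.079 in the same order. After quantile normalization the EMD150 medians were 0.098, 0.070, 0.12, 0.030 and 0.047 and the EMD50 medians 0.081, -0.012, 0.0083, 0.0069 and -0.038, so embryo liver, not whole embryo, then had the largest. Both doses of a stratum share its single control array, and no test between strata was run. RA whole embryo also read above that control, with a member median of 0.15 (146 of 185 higher). The whole embryo control had the lowest member median of the 22 arrays (6.68) and the highest array SD (1.83).

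**Figure D3:**
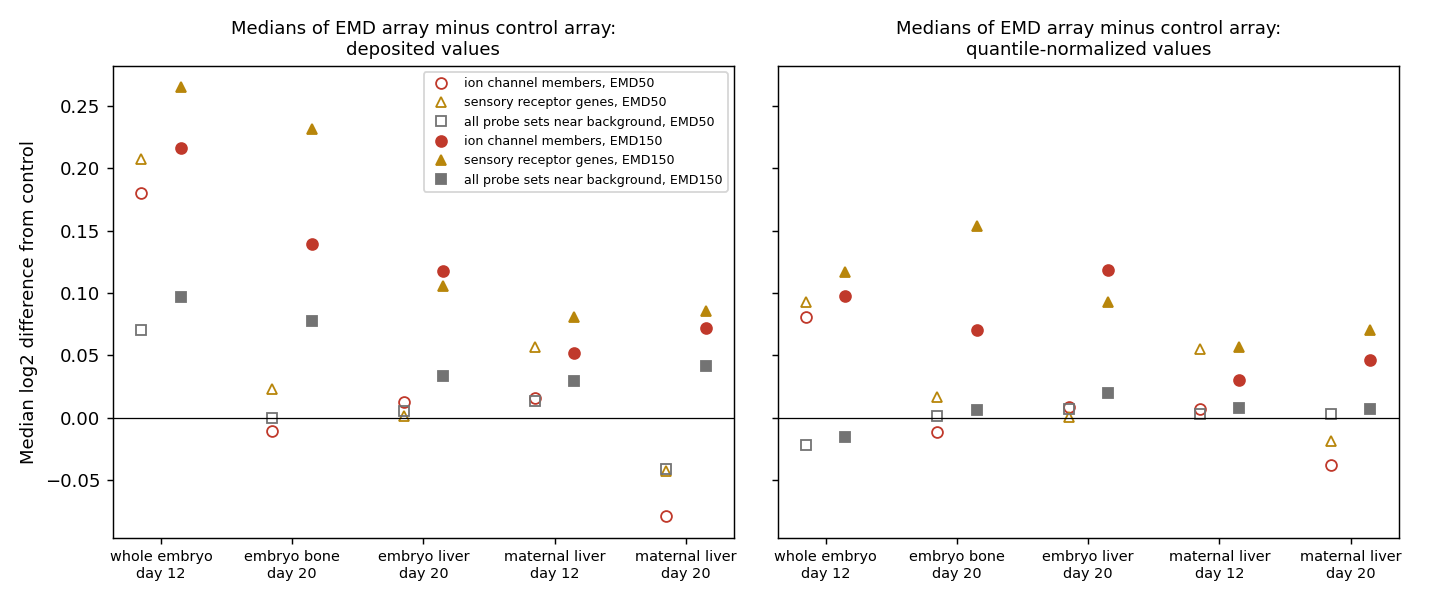
Median log2 difference of an EMD 82571 array from its control array (y axis) by stratum (x axis) for the 185 ion channel members, the 30 sensory receptor genes and all probe sets near background, with EMD50 as open and EMD150 as filled symbols. The left panel uses the deposited values and the right panel quantile-normalized ones; the sensory receptors lie near or above the members at EMD150 in most strata.

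Counts by class are given here in probe sets, not genes. By class, the EMD150 minus control median was 0.14 for voltage-gated potassium channels (39 of 41 above 0) and 0.14 for inward rectifiers (25 of 26). It was 0.21 for the calcium-activated potassium class (6 of 7). For both two-pore channels (13 of 15) and accessory potassium subunits (18 of 19) it was 0.10. It was 0.20 for epithelial sodium channel subunits (5 of 5), 0.12 for sodium pores (9 of 9), 0.15 for calcium pores (15 of 15) and 0.099 for accessory calcium subunits (17 of 17). Trpc and Trpv channels gave 0.12 (6 of 6) and 0.15 (5 of 5). The Clcn class (0.011, 5 of 9 above 0) and the Trpm class (0.055, 4 of 6) were nearest to 0 and turned to -0.033 and -0.0012 after quantile normalization, and the Clcn class to -0.0023 after median centring. The other classes named here kept a median above 0 under both, and the difference between classes was not tested. The listed channels and pumps outside the name rule had a median of 0.063, with 37 of 62 above 0 and none called.

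The members with the smallest p values were small in effect. Kcnk13, a two-pore potassium channel, read 6.75, 7.04 and 7.18 in whole embryo at 0, 50 and 150 mg/kg/day, 7.20, 7.14 and 7.65 in bone, 7.43, 7.60 and 7.77 in embryo liver, 7.32, 7.32 and 7.50 in day 12 and 7.33, 7.37 and 7.60 in day 20 maternal liver. The highest dose was highest in each stratum, with an EMD150 minus control difference of 0.33 ± 0.079 (limma adjusted p = 0.195, higher in 5 of 5 strata). Kcnip4, a Kv4-binding protein, gave 0.33 ± 0.083, and Kcnq1, a pore of the slow potassium current of heart, 0.27 ± 0.080. Kcnc2, a fast voltage-gated potassium channel, gave 0.21 ± 0.064 in 1370557_a_at, 1 of its 6 probe sets. All of these had limma adjusted p = 0.195 and were higher in 5 of 5 strata. On the lower side stood Trpm7 1398355_at (-0.46 ± 0.23, limma adjusted p = 0.277), lower in 5 of 5 strata. Kcnip2, another Kv4-binding protein, was lower through 1 of its 3 probe sets, 1370773_a_at (-0.11 ± 0.059, limma adjusted p = 0.309). Its other probe sets, 1373987_at and 1368639_at, were above 0. The other Trpm7 probe set, 1369059_at, read higher in EMD150 than in control in all 5 strata (8.45 against 8.14, 8.53 against 8.29, 8.76 against 8.31, 9.10 against 8.85 and 8.51 against 8.20, in whole embryo, bone, embryo liver, day 12 and day 20 maternal liver), so the probe sets of this gene had opposite signs.

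**Figure D4:**
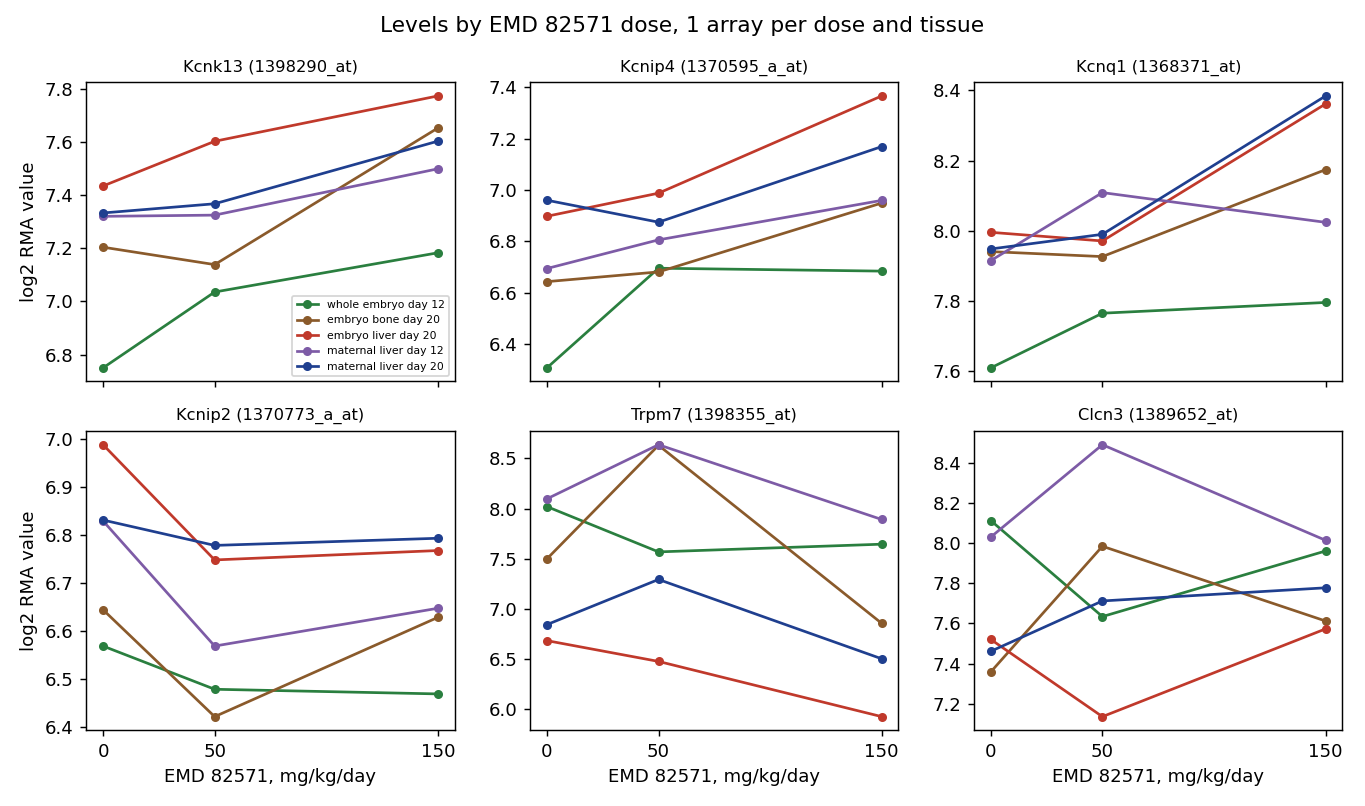
Log2 RMA values (y axis, own scale in each panel) of 6 member probe sets against the EMD 82571 dose in mg/kg/day (x axis, to scale), 1 line per stratum and 1 array per point, without error bars because there is 1 array per dose. Kcnk13, Kcnip4 and Kcnq1 end higher at 150 than at 0 in all 5 strata, Trpm7 1398355_at ends lower, and Clcn3 has no common order.

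At the lower dose, EMD50 minus control called 0 members and 0% of all probe sets by limma, and 3 members (1.62%) had an unadjusted p under 0.05, against 1.59% of all. The members' median was 0.027, with 124 of 185 above 0 (all probe sets 54.2%). Kcnip2 1370773_a_at, 1 of 3 probe sets of its gene, was lower in 5 of 5 strata (-0.17 ± 0.059). Kcns3, a silent subunit that modifies other potassium channels, was higher in 4 of 5 (0.13 ± 0.058), each with a limma adjusted p of 1. EMD150 minus EMD50 called 0 members and 0% of all probe sets as well, with 33 members (17.8%) at an unadjusted p under 0.05, against 14.6% of all. The largest difference there was that of Trpm7 1398355_at (-0.76 ± 0.23, limma adjusted p = 0.288), and it was -0.52 without the 4 arrays set apart.

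In the 15 control and EMD 82571 arrays, dose slopes were fitted separately for maternal liver and for the conceptus (whole embryo, bone and embryo liver). In the conceptus limma called 0 members and 0% of all probe sets, and 75 members (40.5%) had an unadjusted p under 0.05, against 23.6% of all. Of these 73 had a slope above 0, against 12.4% of all probe sets. The smallest adjusted p belonged to Kcnd1, a Kv4 pore (0.23 ± 0.046 per 100 mg/kg/day, limma adjusted p = 0.0767), and Kcnj6 1370598_a_at, of a G-protein-gated inward rectifier (0.30 ± 0.065, limma adjusted p = 0.0767). Kcnk13 (0.27 ± 0.062) and Scn11a, a sodium channel of pain fibres (0.28 ± 0.064), followed, both at 0.0768. The other Kcnj6 probe sets had slopes of 0.094, 0.11 and 0.040. Kcnc2 1370557_a_at had a slope of 0.19, and the other Kcnc2 probe sets had slopes from -0.016 to 0.085. Without EMD50 bone, the 1 array set apart that enters this model, 7 members (3.78%) passed the threshold, against 2.68% of all probe sets, with Kcnd1 at 0.23 (limma adjusted p = 0.0391). Kcnd1 read 6.16, 6.26 and 6.57 in whole embryo, 6.37, 6.41 and 6.61 in bone and 6.18, 6.28 and 6.55 in embryo liver at 0, 50 and 150 mg/kg/day, an order shared by all 3 strata. Its slope was fitted to these same values, so the order is no separate evidence. In single strata this order held for 29.2% of all probe sets in whole embryo, 15.7% in bone and 20.9% in embryo liver.

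In maternal liver limma called 0 members and 0% of all probe sets, and 2 members (1.08%) had an unadjusted p under 0.05, against 2.33% of all. They were Kcnma1 1370472_a_at (0.24 ± 0.078 per 100 mg/kg/day) and Kcnip4 (0.17 ± 0.073), each with limma adjusted p = 0.9999. The test of the slopes against each other called 0 members and 0% of all probe sets, with 3 members (1.62%) at an unadjusted p under 0.05, against 3.04% of all. The largest of these was Kcnj6 1370598_a_at, whose slope in maternal liver minus that in the conceptus was -0.31 ± 0.10 (limma adjusted p = 0.999). The other Kcnj6 probe sets gave -0.11, -0.065 and 0.045. A difference between dam and offspring in the response of channels was therefore not shown by this test.

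Retinoic acid served as the other treatment. RA minus control called 2 members, both higher (1.08%), against 1.83% of all probe sets, or 1.78% in that direction. Clcn3 1389652_at, from a gene of endosomal chloride-proton exchange, read 8.61 and 9.27 in RA whole embryo against 8.11 in control, 8.65 against 7.36 in bone, 8.55 against 7.52 in embryo liver, 8.53 and 8.28 against 8.03 in day 12 and 8.72 against 7.46 in day 20 maternal liver. Each RA array lay above the control of its stratum, a difference of 0.91 ± 0.17 (limma adjusted p = 0.0253). Trpm7 1369059_at read 9.07 and 9.30 against 8.14, 9.65 against 8.29, 8.97 against 8.31, 8.86 and 8.89 against 8.85, and 9.01 against 8.20 in the same order, a difference of 0.73 ± 0.15 (limma adjusted p = 0.0259). In day 12 maternal liver it hardly differed, and in the other 4 strata RA was higher.

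In neither gene were all probe sets called. The other 2 Clcn3 probe sets gave -0.099 and -0.091 (limma adjusted p = 0.817 and 0.854), and Trpm7 1398355_at gave 0.65 ± 0.21 (limma adjusted p = 0.137). Both calls were lost when any of 8 arrays was left out: control whole embryo, bone, embryo liver or day 20 maternal liver, or RA bone, embryo liver, day 20 maternal liver or RA56 whole embryo. Without the 4 arrays set apart the differences were 0.64 and 0.43 (limma adjusted p = 0.272 and 0.388). That setting leaves no RA array in bone or day 20 maternal liver, so the RA comparisons also rest on fewer arrays. Over all members the median RA difference was -0.020, close to that of all probe sets, but its sign differed between strata: 0.15 in whole embryo against -0.090 in bone, -0.095 in embryo liver, -0.023 in day 12 and -0.092 in day 20 maternal liver. The sensory receptors had the same signs, with 0.18, -0.27, -0.22, -0.045 and -0.076.

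EMD150 minus RA called 35 members, 33 higher and 2 lower in EMD150 (18.9%), against 14.4% of all probe sets, with 6.49% of all higher and 7.89% lower. This comparison shares its EMD150 arrays with that against control. The largest called differences upwards were those of the cold receptor Trpm8 (0.43 ± 0.096), the pain fibre sodium channel Scn10a (0.37 ± 0.095), the accessory calcium subunit Cacng2 (0.37 ± 0.11), the silent potassium subunit Kcnv1 (0.36 ± 0.10), Scn4a (0.36 ± 0.10) and the neuronal calcium pore Cacna1a (0.36 ± 0.12), with limma adjusted p between 0.0118 and 0.0494 and EMD150 higher in 5 of 5 strata for each. Of these probe sets, all but that of Cacna1a lay near background. Cacna1a was called in 1 of its 4 probe sets, whose differences ran from 0.096 to 0.36, and Cacng2 in 1 of 2 (0.26 and 0.37). The neuron list was higher in EMD150 than in RA outside whole embryo. It stood at 9.26 in EMD150 and 7.58 in RA bone, at 7.42 and 7.24 in embryo liver and at 7.29 and 7.18 in day 20 maternal liver. In day 12 maternal liver it was 7.24 against 7.09 and 7.15, and in whole embryo 9.30 lay between 8.96 and 9.55. The glia list was 8.37 in EMD150 against 7.62 in RA bone. Lists of other cell types went both ways in bone: cartilage stood at 11.3 in EMD150 and 10.6 in RA, and skeletal muscle at 10.9 and 11.6. The part of nerve or other tissue RNA in these differences was not tested. Of the 30 sensory receptor genes, 13 were called higher in the same comparison and none lower, with a median of 0.24, against 0.15 for the members. The 2 lower members were Trpm7 1398355_at (-1.12 ± 0.21) and Clcn3 1389652_at (-0.81 ± 0.17; limma adjusted p = 0.00727 and 0.0104).

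Leaving out single arrays moved this number from 35. There were 4 called members without EMD150 bone or RA embryo liver, 8 without EMD150 embryo liver, 12 without RA bone, 17 without EMD150 day 20 maternal liver, RA day 20 maternal liver or RA56 whole embryo, 54 without control whole embryo and 78 without RA5 whole embryo. Without the 3 maternal liver arrays high in acinar genes there were 17. Without the 4 arrays set apart no member was called, and Trpm7 and Clcn3 gave -0.77 and -0.55 (limma adjusted p = 0.102 and 0.157). Fewer RA arrays remain in that setting here as well.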

How the data were processed

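RNA of 22 samples was measured on 1-colour oligonucleotide arrays, 1 array per sample, each labelled as its own sample. The deposited values are log2 expression values made by the authors through RMA, a method that summarises the probes of a set robustly over arrays, which the submitters' processing notes name, and no version of it is given in the sources used here. Of 15923 rows, 57 array controls were left out and 15866 probe sets were tested without a filter on low values. Gene symbols came from the platform's probe annotation, and all 133 member genes were found by Entrez identifier in RefSeq (GRCr8) under the same symbol.

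limma 3.58.1 in R 4.3.3 (lmFit, eBayes with an intensity trend) fitted stratum and treatment over all 22 arrays with 14 residual degrees of freedom, and dose slopes over 15 arrays with 8. Each of 13 comparisons was two-sided, Benjamini-Hochberg adjusted over all probe sets, and called at 0.05. Errors after ± are standard errors for differences and SDs for levels. The number of arrays limits the precision. The code was tested on simulated data.

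Named genes were all called members; with over 12 called, up to 6 per direction by difference; with none, up to 4 per direction by p; and the 12 highest members, the 4 highest of each stratum and the widest of each class, of which the text prints those a reader needs. The members and lists were chosen with earlier results of these data known. Alternatives were quantile normalization, median centring, only probe sets above the median, no intensity trend, array weights, leaving out arrays or strata and, added after seeing the data, a block for the RA codes and leaving out 3 arrays high in acinar genes. Scan dates and batches were not analysed here.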

Additional observations from a re-analysis of the deposited data

How the results depend on the processing

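Of 74 results for single probe sets, 51 kept their direction and their side of the threshold under every alternative run, 18 lost the threshold under at least 1 and 4 (the conceptus slopes of Kcnd1, Kcnj6, Kcnk13 and Scn11a) passed it without the 4 arrays set apart. The 2 reversals were Trpc4ap, lower in embryo liver than in day 20 maternal liver in the main values and 0.0931 higher after quantile normalization, and the slope of Kcnd1 in maternal liver minus conceptus, which was not called and turned to 0.0096 without the 3 arrays high in acinar genes. Counts of called members are given in the order whole embryo minus day 12 maternal liver, bone minus embryo liver, embryo liver minus day 20 maternal liver, bone minus whole embryo, and day 20 minus day 12 maternal liver. With only probe sets above the overall median tested, which leaves 21 members, they were 14, 11, 0, 4 and 0, with 1 for RA minus control and 2 for EMD150 minus RA. Without the 4 arrays set apart, bone minus embryo liver gave 39, RA minus control 0, EMD150 minus RA 0 and the conceptus slope 7. With only the arrays of the strata compared, bone minus embryo liver gave 58 and bone minus whole embryo 21, and with array weights embryo liver minus day 20 maternal liver gave 38 and the days of maternal liver 9. RA minus control gave 0 without bone, embryo liver, day 20 maternal liver or whole embryo. EMD150 minus RA gave 21 after quantile normalization and 3, 0, 13, 1 and 54 without bone, embryo liver, day 12 maternal liver, day 20 maternal liver and whole embryo. Leaving out 1 array at a time gave 64 to 110, 72 to 104, 13 to 27, 30 to 67 and 0 to 3 for the tissue comparisons, 0 to 2 for RA minus control, 4 to 78 for EMD150 minus RA, 0 to 7 for the conceptus slope and 0 throughout for the other EMD 82571 results. The next alternatives were chosen after seeing the data. Without the 3 arrays high in acinar genes, whole embryo minus day 12 maternal liver gave 46, the days of maternal liver 0 and EMD150 minus RA 17. The codes RA5 and RA56 recur across strata, but no source says that they mark shared animals, and the RA5 minus RA56 differences of whole embryo and day 12 maternal liver had a correlation of -0.14 over probe sets, so they were not taken to pair the samples. With the code as a replicate block RA minus control gave 0 and EMD150 minus RA 4, and with the code crossed in day 12 maternal liver 0 and 3, while the other counts stayed within 1.5 times. The causes were not tested. Signal near background limits what can be shown for the 164 probe sets with a mean below the overall median, in the tissues where they read low.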
